A study of Mus musculus with 8 samples.

Results

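Imprinted genes are expressed mainly from 1 parental allele, and the hippocampal level of 38 of them was followed in mice that overexpressed miR-708-5p. A list of 40 known mouse imprinted genes was matched to the count table by gene symbol. Of these, 39 were found, Zrsr1 was not matched, and Phlda2 was left out because its count was 0 in every library. The remaining 38 genes had at least 10 counts summed over the 8 libraries, out of 40659 genes in the table, and each of them passed the filter on low counts that left 17252 genes for testing. By common knowledge 21 of the 38 were grouped as expressed from the paternal allele and 14 from the maternal allele. The other 3 (Blcap, Grb10 and Gnas) were grouped as using an allele that depends on the isoform or tissue. This grouping is simplified, because the allele used can depend on tissue or isoform for some of the other genes too, such as Ube3a.

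PolyA-RNA was sequenced from the hippocampi of 8 male mice of the inbred strain C57BL/6JRj, 4 labelled CTRL (here hpCTL) and 4 labelled as hairpin or miR-708-5p overexpression (here hp708). Both groups received a recombinant adeno-associated virus in the dorsal and ventral hippocampus, with hp708 carrying a hairpin for miR-708-5p under the neuronal human synapsin promoter and hpCTL carrying a control. Mice were operated on in postnatal week 7 to 8 and the tissue was taken 4 weeks later, while the labels give the tissue as postnatal week 12 to 13. Cells that the virus did not reach are part of each sample, and in whole tissue fewer cells of a type and less RNA per cell cannot be told apart. The parental alleles of an inbred strain carry the same sequence, so these are total levels and not allelic expression. Total counts per library lay between 22606824 and 28462428. The microRNA's own gene, Mir708, had 0 counts in each library, so the labels could not be checked against it. The library hp708 replicate 1, labelled as overexpression, comes from an animal that another part of the study's source data lists as hpCTL. It was kept as labelled. Group comparisons without it are given as well for the genes whose differences are printed, the marker lists, the neighbouring pairs and the seed matches. Nothing in the labels names a shared litter or surgery day for the mice.

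Imprinting is set in the germ line by DNA methylation at control regions, which then hold neighbouring genes in one domain to opposite parental alleles. Many of these genes act in growth, in the development of the brain and in adult neurons, where several are among the strongly expressed transcripts. Nnat (neuronatin) encodes a small membrane proteolipid of the endoplasmic reticulum that takes part in calcium handling. It lies inside the span of Blcap, a gene for an apoptosis-inducing factor, on the opposite strand.

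Of the 38 genes, 11 held a match to the miR-708-5p seed in their longest 3'UTR: H13, Nnat, Sgce, Mest, Copg2, Zim1, Commd1, Dlk1, Kcnk9, Trappc9 and Impact. A match was the 7 letters AGCTCCT (7mer-m8), the 7 letters GCTCCTA (7mer-A1) or both together (8mer), read on the transcript's strand. The microRNA (RefSeq table, build GRCm38.p6) is shown with its seed, bases 2 to 8, in capitals. Below it stand 4 of the sites with the seed match in capitals. They set the long match of Nnat beside the 8mer of Kcnk9, the Copg2 site with the next highest total of paired bases, and the 7mer-A1 of Dlk1, whose level is described below.
mmu-miR-708-5p: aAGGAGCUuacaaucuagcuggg
Nnat: cccagctagattgtaAGCTCCTg
Kcnk9: tgtgttcactctaccAGCTCCTA
Copg2: cacaacatgactttcAGCTCCTt
Dlk1: ttgggtaggaacctatGCTCCTA
These are GRCm39 positions chr2:157404325-157404347 (+) for Nnat, chr15:72379973-72379995 (-) for Kcnk9, chr6:30746786-30746808 (-) for Copg2 and chr12:109427793-109427815 (+) for Dlk1, all in 3'UTRs. In the Nnat site 22 of the 23 microRNA bases were complementary without a gap, in 1 run from base 2 on. The Copg2 site followed with a total of 16 of 23, of which 7 were in a row from base 2 on, and the 8mer of Kcnk9 had 9. Seed matches stood in 36.7% of the 30 imprinted genes with an annotated 3'UTR and in 26.5% of the 14808 tested genes with one, but the median 3'UTR was also longer, 2581 bases against 1865 bases. The 11 genes with a match had a median log2 fold change of -0.01 (hp708 against hpCTL), and the 19 without one -0.02. Without hp708 replicate 1 these medians were -0.13 and -0.19. Over all tested genes with a 3'UTR the medians were 0.00 with a match and -0.01 without one. There they were -0.00 and -0.00 without hp708 replicate 1.

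Levels are given in CPM, that is counts scaled to a common library total, with the TMM correction of library size. Nnat (ENSMUSG00000067786, chromosome 2 of GRCm39 from 157401879 to 157404573, + strand) stood at 352, 315, 260 and 282 CPM in hpCTL replicates 1 to 4 and at 310, 210, 280 and 156 CPM in hp708 replicates 1 to 4. Both groups overlapped, because hp708 replicates 1 and 3 lay within the control range while replicates 2 and 4 lay below it. The mean was 302 ± 40.1 CPM in hpCTL and 239 ± 69.6 CPM in hp708 (SD, n = 4 each). On the log2 scale hp708 differed from hpCTL by -0.21 with a standard error of 0.12, which did not pass the quasi-likelihood test of edgeR with 3 fitted surrogate variables (FDR 0.735, the p-value adjusted over all tested genes). Blcap (ENSMUSG00000067787, chromosome 2 from 157398270 to 157413194, - strand) stood at 104, 101, 94.8 and 92.6 CPM in hpCTL and at 107, 86.7, 98.2 and 78.6 CPM in hp708. The order of the hp708 libraries was thus the same as for Nnat, with replicate 4 lowest, and the range was narrower. Here the log2 fold change was -0.02 with a standard error of 0.07 (edgeR, FDR 0.961). Exons of both genes share 49 bases in the annotation, or 2.36% of the exon length of Nnat, and the strand setting of the counting is not stated.

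Without hp708 replicate 1, the log2 fold change of Nnat was -0.58 (standard error 0.08) and its FDR 0.0461 by edgeR, and that of Blcap was -0.19 with an FDR of 0.212. Without hp708 replicate 4 they were -0.06 and 0.05. With no surrogate variables, leaving out hp708 replicate 1 gave Nnat -0.49 with an FDR of 0.999. With all 8 libraries, other settings moved Nnat to -0.34 with no surrogate variables (FDR 0.999), -0.38 with a block for the replicate number (FDR 0.999) and -0.40 with surrogate variables estimated from CPM (FDR 0.0947, edgeR throughout). The other 4 settings gave -0.26 to -0.20. The call of Nnat depended on which library was left out and on the surrogate variables.

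**Figure D1:**
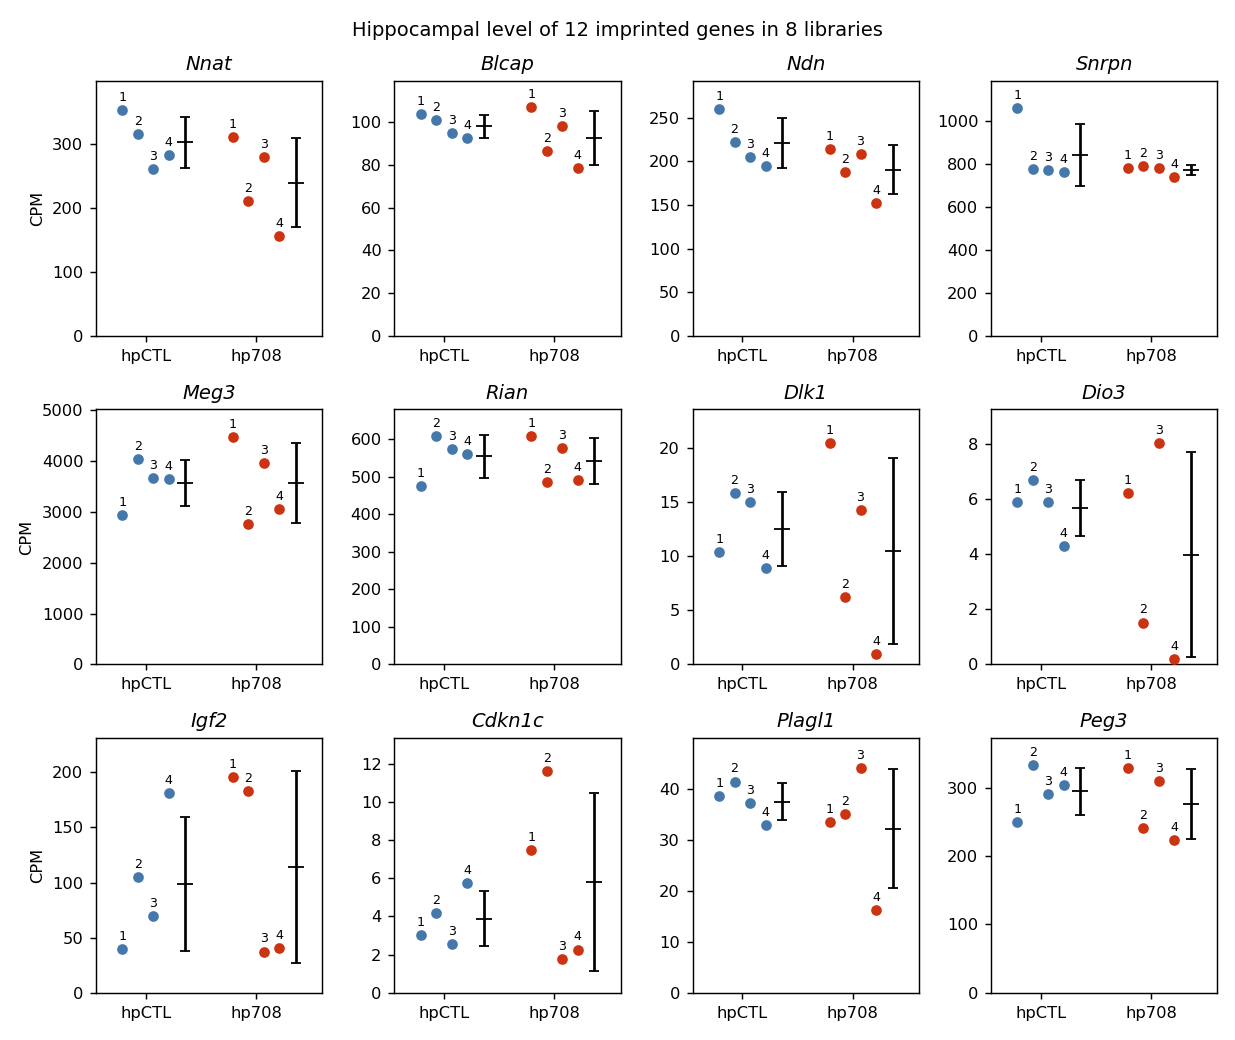
CPM (vertical axes, from 0) of 12 imprinted genes in the 4 hpCTL (blue) and 4 hp708 (red) libraries, with the replicate number at each point and the group mean ± SD in black. Nnat at 156 CPM, Dlk1 at 0.991 CPM and Dio3 at 0.207 CPM have their lowest points in hp708 replicate 4, and the groups overlap in every panel.

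Across the 38 genes no difference between hp708 and hpCTL passed an FDR of 0.05 in the quasi-likelihood test, and 0 of 38 had an unadjusted p-value below 0.05. Over all tested genes 0.0058% (1 of 17252) passed the FDR and 7.7% had an unadjusted p-value below 0.05. DESeq2 and edgeR's likelihood ratio test also called 0 of the 38 at an FDR of 0.05, where 0.556% and 0.736% of all tested genes passed. DESeq2 gave no adjusted p-value for H19 and Airn. At an unadjusted p-value below 0.05 DESeq2 gave 0 (5.02% of tested genes) and the likelihood ratio test 1 (6.01%). The lowest adjusted p-value of the 38 was 0.656 (edgeR), for H19. The CPM of both groups overlapped for each of the 38 genes, whereas 1.51% of tested genes had groups without overlap. The log2 fold change was negative for 25 of 38 (65.8%) and for 53.2% of tested genes, with medians of -0.02 and -0.01. Among the paternally expressed genes 16 of 21 had a negative value (median -0.04), and among the maternally expressed genes 6 of 14 (median 0.04). A p-value that misses the threshold does not show equal levels.

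Levels differed from library to library. Over all 8 libraries of both groups, the highest was less than 1.5 times the lowest for 18 genes, 1.5 to 2 times for 8, and 2 times or more for 12. The library hp708 replicate 4 was the lowest of the 8 for 19 of 38 genes (50%), while it was the lowest for 16.6% of all tested genes. These 19 were 12 of the 21 paternally expressed genes, 4 of the 14 maternally expressed genes, and Blcap, Grb10 and Gnas. In the same library 22 of the 38 genes lay below all 4 hpCTL libraries, against 24.9% of tested genes. The count below all controls was 2 in hp708 replicate 1 (18% of tested genes), 14 in replicate 2 (23.6%) and 6 in replicate 3 (23.4%). Above all 4 controls lay 13 of 38 in replicate 1 (18.5% of tested genes), 6 in replicate 2 (20.9%), 8 in replicate 3 (21.2%) and 3 in replicate 4 (22.7%).

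**Figure D2:**
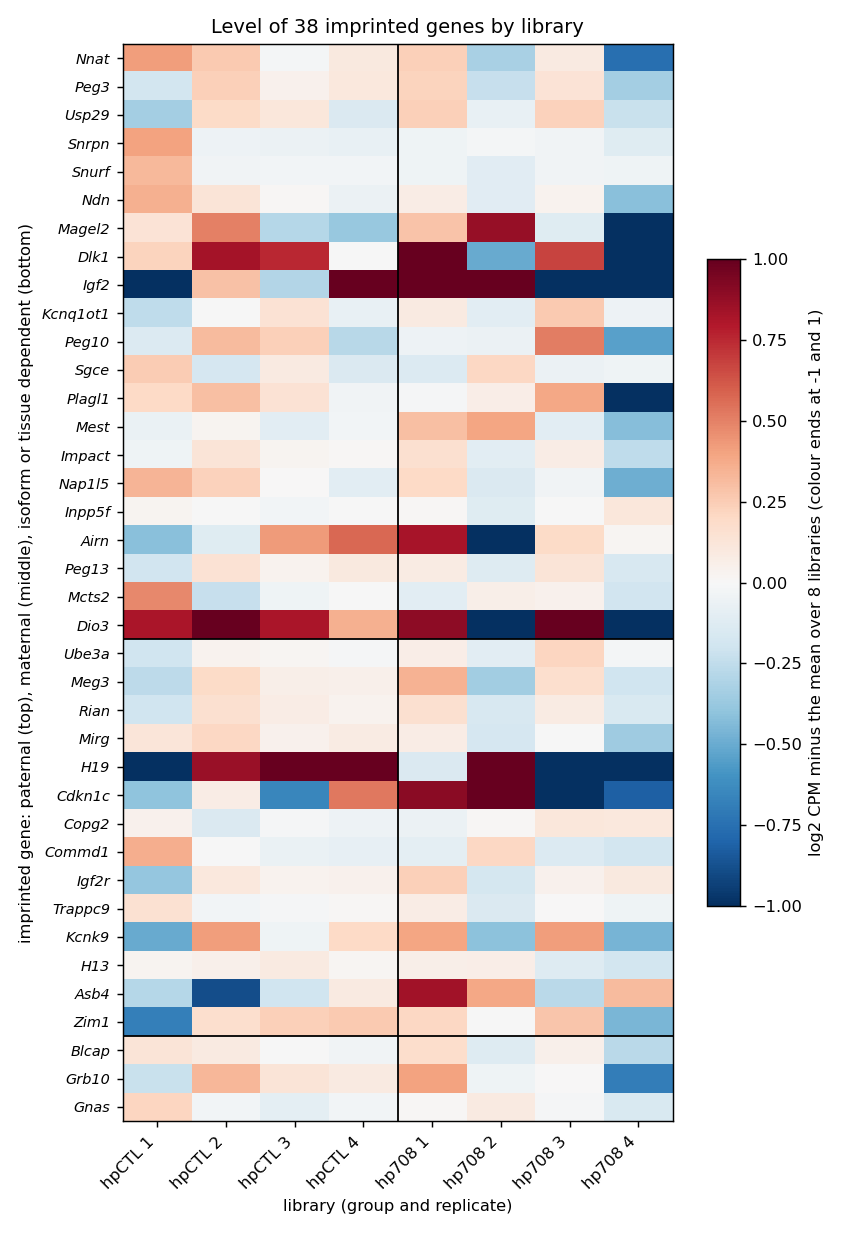
Log2 CPM of the 38 imprinted genes (rows) in each library (columns) minus the gene's mean over the 8 libraries, with red for higher, blue for lower and the colour ending at -1 and 1. The column of hp708 replicate 4 is blue in most rows and holds the lowest value for 19 of them, and Igf2, Cdkn1c and H19 differ within both groups.

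The result of the test moved with single libraries and with the surrogate variables. With 3 surrogate variables estimated anew each time, the number of imprinted genes at an unadjusted p-value below 0.05 was 17 of 38 without hp708 replicate 1 (12.2% of tested genes), 13 without hpCTL replicate 1 (9.67%), 12 without hp708 replicate 2 (12%), 7 without hpCTL replicate 4 (6.09%) and 5 without hp708 replicate 3 (8.02%). It was 1 without hpCTL replicate 2 (7.04%), 1 without hp708 replicate 4 (8.46%) and 0 without hpCTL replicate 3 (2.98%). Negative log2 fold changes made up 32 of 38 without hp708 replicate 1 and 13 of 38 without hp708 replicate 4. The share of negative values over all tested genes was not worked out for these fits, so these counts do not single out the imprinted genes. In the fit without hp708 replicate 1, Nnat was the single imprinted gene at an FDR below 0.05, where 56 of all tested genes (0.321%) passed, and the next were Nap1l5 at -0.36 (FDR 0.0581), Grb10 at -0.50 (FDR 0.0638), Igf2 at -0.58 (FDR 0.0792), Meg3 at -0.27 (FDR 0.086), and Peg3 and Mirg, both at -0.33 (FDR 0.0906, edgeR throughout). With no surrogate variables that fit had 3 of 38 at an unadjusted p-value below 0.05, against 3.42% of tested genes, and they were Nnat, Mirg and Nap1l5. The FDR of each of the 38 genes was then 0.999, and Grb10 was at -0.30, Meg3 at -0.12 and Peg3 at -0.19. In the other fits with no surrogate variables, the number at an unadjusted p-value below 0.05 was 1 without hp708 replicate 2 (3.21% of tested genes) and 1 without replicate 3 (2.07%). It was 0 without hpCTL replicate 1 (1.99%), 2 (1.37%), 3 (1.92%) or 4 (1.57%), and 0 without hp708 replicate 4 (1.51%).

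In the chromosome 7 domain that is affected in Prader-Willi and Angelman syndromes, levels ranged from the high Snrpn to the low Magel2. Snrpn, which encodes a neuronal protein of the splicing machinery, stood at 1060, 775, 773 and 763 CPM in hpCTL and at 781, 792, 783 and 740 CPM in hp708. Its high value in hpCTL replicate 1 stood apart from the other 7 libraries, which spanned 740 to 792 CPM. Snurf, whose 216 exon bases all lie within exons of Snrpn, had the same pattern, at 202 CPM in hpCTL replicate 1 and 149 to 158 CPM elsewhere, and reads of the pair may have been split between them. Ndn (necdin, a MAGE family protein of postmitotic neurons) stood at 260, 222, 205 and 195 CPM in hpCTL and at 214, 188, 208 and 152 CPM in hp708. It was lower in hp708 replicates 2 and 4 than in any control, and hp708 differed by -0.13 on the log2 scale (standard error 0.08, FDR 0.751, edgeR). The difference was -0.27 without hp708 replicate 1 (FDR 0.092) and -0.04 without hp708 replicate 4 (FDR 0.941, edgeR). Magel2, a second MAGE gene of the domain, was low, with 1.92 to 3.54 CPM in hpCTL and 1.24 to 4.56 CPM in hp708. Ube3a, the ubiquitin ligase gene that neurons express from the maternal allele, stood at 94.6, 111, 110 and 108 CPM in hpCTL and at 114, 101, 126 and 107 CPM in hp708. Its values overlapped, and 8.29% of its exon length is shared with the antisense transcript Snhg14.

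In the domain of chromosome 12 between Dlk1 and Dio3, the maternally expressed noncoding RNAs Meg3 and Rian were abundant, while Mirg and the paternally expressed coding genes were low. Meg3, the noncoding RNA that alone made up between 0.281% and 0.449% of all counts of a library, stood at 2933, 4029, 3668 and 3638 CPM in hpCTL and at 4470, 2765, 3967 and 3060 CPM in hp708. Its highest and its lowest library were both in hp708, and the means were 3567 ± 458 and 3566 ± 790 CPM (SD, n = 4 each). Rian, a host transcript of small nucleolar RNAs, followed with 475, 608, 574 and 560 CPM in hpCTL and 608, 487, 578 and 491 CPM in hp708. Mirg, a host of microRNAs, stood at 31.2, 33.1, 29.6 and 30.4 CPM in hpCTL and at 30.3, 25.6, 28.6 and 22.5 CPM in hp708, and 3 of its 4 hp708 values lay below every control. The fitted log2 difference of Mirg was -0.17 (standard error 0.08, FDR 0.706, edgeR), and the exact permutation test of its log2 CPM gave p = 0.0571 (two-sided, where the smallest possible p is 0.0286). Without hp708 replicate 1 the fitted difference was -0.33 (FDR 0.0906, edgeR) and the exact permutation p was 0.0286, the smallest possible and not adjusted over the 38 genes. Without hp708 replicate 4 the difference was -0.11. Mirg was not alone in this pattern, since Snurf and Commd1 also had 3 hp708 values below every control. With all libraries the exact permutation test gave p = 0.0571 for Snurf and p = 0.457 for Commd1.

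Dlk1, a membrane protein related to Notch ligands, stood at 10.4, 15.8, 15 and 8.86 CPM in hpCTL and at 20.4, 6.26, 14.2 and 0.991 CPM in hp708. Dio3, the deiodinase that inactivates thyroid hormone, stood at 5.89, 6.69, 5.87 and 4.28 CPM in hpCTL and at 6.2, 1.52, 8.01 and 0.207 CPM in hp708. For both genes hp708 replicates 2 and 4 were below every control, while the highest of all 8 libraries was hp708 replicate 1 for Dlk1 and replicate 3 for Dio3. In hp708 replicate 4 these values rested on 24 counts of Dlk1 and 5 counts of Dio3. The median of the other 7 libraries was 14.3 times higher for Dlk1 and 28.5 times higher for Dio3, but 1.2 times higher for Meg3 and 1.17 times higher for Rian. With this spread neither difference passed the test, with a fitted log2 difference of -0.27 for Dlk1 (standard error 0.60, FDR 0.943) and -0.45 for Dio3 (standard error 0.64, FDR 0.908, edgeR). Without hp708 replicate 1 they were -1.87 (FDR 0.153) and -2.23 (FDR 0.178, edgeR), and without hp708 replicate 4 they were 0.21 and -0.04. With no surrogate variables in the fit without hp708 replicate 1, both were -0.81 (FDR 0.999). With all libraries the settings tried gave -0.92 to -0.26 for Dlk1 and -1.25 to -0.45 for Dio3.

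A list of 9 marker genes of the subiculum, a region at the border of the hippocampus, was measured beside these genes. The mean log2 CPM of the list stood at 3.86, 4.22, 4.07 and 4.32 in hpCTL replicates 1 to 4 and at 4.28, 3.49, 3.63 and 3.16 in hp708, lowest in replicate 4. The difference of -0.48 gave p = 0.114 in the exact permutation test, and without hp708 replicate 1 it was -0.69 with p = 0.0286, the smallest possible, before any adjustment over the 13 lists. In the edgeR fit 4 of its 8 tested genes had an unadjusted p-value below 0.05, all 4 lower, against 7.7% of all tested genes, of which 841 of 1328 were lower. The median log2 fold change of the list was -0.35. No marker was at 0 in all libraries, and its summed level was 259 to 366 CPM in hpCTL and 229 to 350 CPM in hp708. Its part in the levels of Nnat, Dlk1 or Dio3 was not tested.

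The growth genes of distal chromosome 7 differed within both groups. Igf2, which encodes insulin-like growth factor 2 and is expressed in choroid plexus and meninges, stood at 39.9, 105, 69.7 and 181 CPM in hpCTL and at 196, 183, 37.5 and 40.6 CPM in hp708. Each group thus held low and high libraries, and the fitted log2 difference was -0.04 (standard error 0.09, FDR 0.947, edgeR) with all libraries and -0.58 (FDR 0.0792) without hp708 replicate 1. With no surrogate variables these were 0.21 (FDR 0.999) and -0.17 (FDR 0.999, edgeR). In the annotation 58.4% of its exon length is shared with Gm49394, a transcript on the same strand. Cdkn1c, the gene of a cell cycle inhibitor, stood at 3.03, 4.2, 2.54 and 5.75 CPM in hpCTL and at 7.47, 11.6, 1.79 and 2.27 CPM in hp708. H19, the maternal noncoding RNA next to Igf2, had 3, 10, 18 and 15 counts in hpCTL and 6, 17, 2 and 1 counts in hp708. Its log2 fold change of -1.53 (standard error 0.66, FDR 0.656, edgeR) was the most negative of the 38 and rested on at most 18 counts in a library. It was -1.32 without hp708 replicate 1 (FDR 0.569) and -0.76 with no surrogate variables (FDR 0.999, edgeR). Kcnq1ot1, the paternal noncoding RNA of the Cdkn1c domain, had 19.5 to 25.8 CPM in hpCTL and 21.6 to 27.9 CPM in hp708.

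The list of 12 choroid plexus epithelium markers had a mean log2 CPM of 1.54, 4.92, 2.50 and 5.25 in hpCTL and of 5.70, 6.00, 2.36 and 2.68 in hp708. Its high libraries, hpCTL replicates 2 and 4 and hp708 replicates 1 and 2, were the 4 highest for Igf2 and for Cdkn1c as well. Its summed level was 240 to 3133 CPM in hpCTL and 303 to 6373 CPM in hp708, with no marker at 0 in all libraries. The 12 markers of meningeal and perivascular fibroblasts had means of 2.80, 2.81, 3.14 and 3.62 in hpCTL and of 3.73, 3.61, 2.20 and 2.75 in hp708, with summed levels of 139 to 211 and 108 to 254 CPM, and none at 0 throughout. No group difference passed the test for either list (p = 0.543 and p = 0.886, and without hp708 replicate 1 p = 0.971 and p = 0.543, exact permutation test), and their part in the levels of Igf2, H19 and Cdkn1c was not tested.

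**Figure D3:**
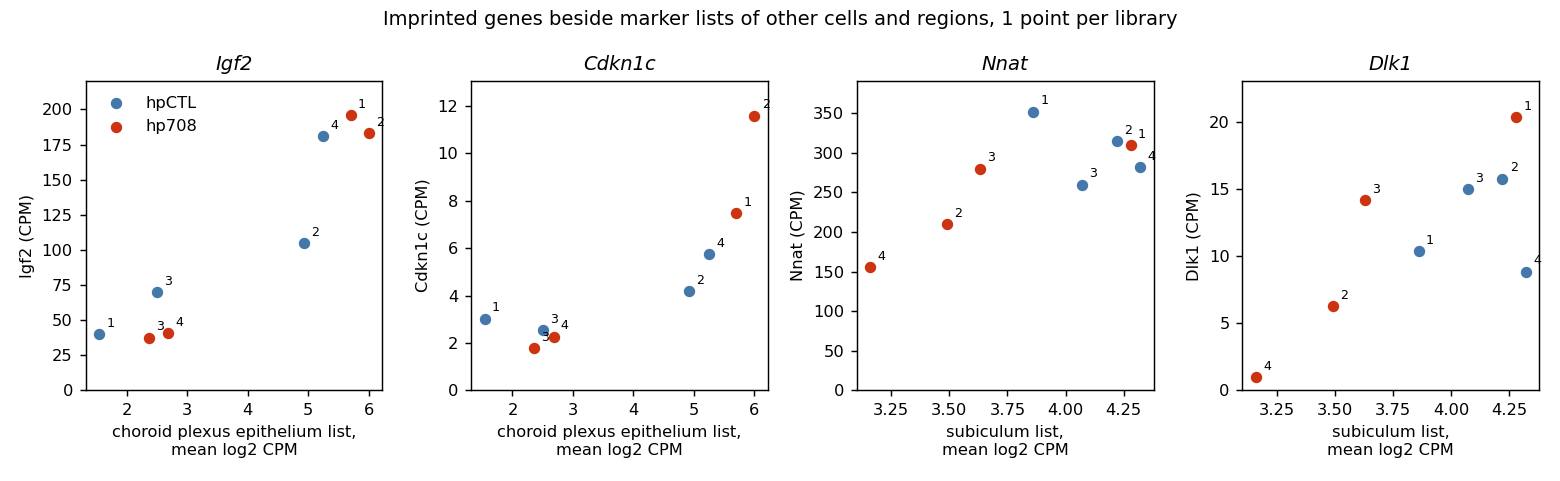
CPM of 4 imprinted genes (vertical axes, from 0) against the mean log2 CPM of a marker list (horizontal axes), with 1 point per library, blue for hpCTL and red for hp708, and the replicate number beside it. Igf2 and Cdkn1c are highest in the 4 libraries with choroid plexus means of 4.92 or more, and Nnat and Dlk1 are lowest in hp708 replicate 4, where the subiculum mean is 3.16. Among the controls, replicate 1 has the lowest subiculum mean (3.86) and the highest Nnat (352 CPM). Control replicate 4 has the highest subiculum mean (4.32) and the lowest Dlk1 of the controls (8.86 CPM).

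Peg3 and its neighbours on proximal chromosome 7 showed no difference that passed the test. Peg3, a zinc finger protein gene with a role in maternal behaviour and growth, stood at 249, 333, 291 and 304 CPM in hpCTL and at 329, 241, 310 and 223 CPM in hp708, and a fitted log2 difference of -0.04 (standard error 0.10, FDR 0.945, edgeR) with all libraries and -0.33 (FDR 0.0906) without hp708 replicate 1. Usp29, a ubiquitin peptidase gene, ranged from 20 to 28.8 CPM in hpCTL and from 21.7 to 29.8 CPM in hp708. The maternally expressed Zim1 had 3.89 to 7.47 CPM and 4.54 to 7.54 CPM.

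On chromosome 6, Peg10, a gene derived from a retrotransposon, stood at 15.9, 21.8, 20.6 and 14.4 CPM in hpCTL and at 16.9, 16.8, 24.9 and 12 CPM in hp708. Its neighbour Sgce, the gene of epsilon-sarcoglycan, had 24.1 to 32.2 CPM in hpCTL and 24.6 to 31.2 CPM in hp708. Mest, a gene of the hydrolase fold family, stood at 15.4, 16.4, 15 and 15.8 CPM in hpCTL and at 19.8, 21.2, 15 and 12 CPM in hp708, so that its controls lay close together and its hp708 libraries on both sides of them. Mest and Copg2, a coatomer subunit gene, share 3850 exon bases on opposite strands, 47.7% of the exon length of Mest, and reads there cannot be assigned without strand. Copg2 had 73 to 83 CPM and 77.6 to 87.2 CPM. Nap1l5, a nucleosome assembly protein gene, stood at 254, 236, 201 and 187 CPM in hpCTL and at 230, 182, 196 and 143 CPM in hp708, with hp708 replicates 2 and 4 below every control and a fitted log2 difference of -0.13 (standard error 0.10, FDR 0.808, edgeR), which was -0.36 without hp708 replicate 1 (FDR 0.0581) and -0.03 without hp708 replicate 4. The maternally expressed Asb4 was near the detection limit, with 7 to 16 counts in hpCTL and 11 to 28 counts in hp708.

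Other imprinted regulators of growth and signalling overlapped between groups as well. Plagl1, a zinc finger transcription factor gene, stood at 38.6, 41.4, 37.1 and 32.8 CPM in hpCTL and at 33.4, 35.1, 44 and 16.2 CPM in hp708. Its lowest value was that of hp708 replicate 4, and the other 7 libraries spanned 32.8 to 44 CPM. Grb10, an adaptor of insulin receptor signalling, stood at 27.3, 40, 34.7 and 33.8 CPM in hpCTL and at 41.9, 30.9, 31.8 and 19.7 CPM in hp708, again lowest in replicate 4. Gnas, the gene of the stimulatory G protein alpha subunit, stood at 1347, 1140, 1086 and 1138 CPM in hpCTL and at 1170, 1233, 1152 and 1046 CPM in hp708. Impact, an inhibitor of the GCN2 stress kinase pathway, stood at 199, 224, 208 and 206 CPM in hpCTL and at 229, 190, 215 and 172 CPM in hp708. Igf2r, the receptor that clears insulin-like growth factor 2, had 38.4 to 54 CPM in hpCTL and 44.5 to 59.2 CPM in hp708, and the antisense RNA Airn of its domain 18 to 34 counts and 7 to 42 counts.

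The groups overlapped for the remaining members too. Kcnk9, a potassium channel gene, ranged from 68.7 to 130 CPM in hpCTL and from 70.6 to 130 CPM in hp708. Around it on chromosome 15, Peg13 had 196 to 247 CPM and 200 to 244 CPM, and Trappc9, a trafficking complex gene, 79.2 to 89.7 CPM and 73 to 85.2 CPM, where 27.4% of the exon length of Peg13 is shared with Trappc9. Inpp5f, a phosphoinositide phosphatase gene, was the steadiest in controls, with 110 to 114 CPM there and 103 to 121 CPM in hp708. H13, the signal peptide peptidase gene, had 69.7 to 72.9 CPM and 60.4 to 71.9 CPM, and Mcts2, a retrogene inside it, 5.55 to 9.1 CPM and 5.7 to 6.78 CPM. Commd1, a copper and transport regulator gene, had 19.5 to 26.5 CPM and 18.1 to 23.8 CPM.

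Per kilobase of annotated exon, the level in hpCTL was highest for Meg3, at 185 CPM per kilobase, when Snurf is set aside for its shared exons. Nnat followed with 145, Nap1l5 with 119, Gnas with 98.1, Snrpn with 89.7 and Ndn with 58.4 CPM per kilobase. Over the 8 libraries Meg3 ranged from 143 to 232, Nnat from 74.9 to 169 and Nap1l5 from 77.8 to 138 CPM per kilobase, so the ranges of these neighbours overlapped, and differences within libraries were not tested. Blcap stood at 27.3 CPM per kilobase, with a range of 21.9 to 29.8 that lay below every library of Nnat. At the low end were H19 at 0.162, Asb4 at 0.11 and Airn at 0.0914 CPM per kilobase. Exon lengths come from a later annotation release than the counts.

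Neighbouring members were compared across the 8 libraries in 7 pairs, using log2 CPM. Nnat and Blcap varied together, with Pearson's r = 0.95 (p = 0.000719, adjusted p = 0.00252) and Spearman's rho = 0.86 (p = 0.0107, adjusted p = 0.0375) by exact permutation, and r was 0.76 without the 2 libraries farthest from the median of Nnat, hp708 replicates 2 and 4. Meg3 and Rian had r = 0.96 (p = 0.000694, adjusted p = 0.00252) and rho = 0.95 (p = 0.00114, adjusted p = 0.00799) by exact permutation, and r = 0.95 without the 2 farthest libraries. The other 5 pairs did not pass the adjustment for r or rho. Peg3 and Usp29 had r = 0.80 and rho = 0.76 (adjusted p = 0.0659 and 0.0858, exact permutation), with r = 0.84 without the 2 farthest. Igf2 and H19 had r = 0.71 and rho = 0.62 (adjusted p = 0.108 and 0.199, exact permutation). Ndn and Snrpn had r = 0.74 and rho = 0.55 (adjusted p = 0.112 and 0.199, exact permutation), but r = -0.16 without the 2 farthest libraries, hpCTL replicate 1 and hp708 replicate 4. Mest and Copg2 had r = -0.47 and rho = -0.57, and Peg10 and Sgce r = -0.09 and rho = -0.26 (adjusted p of r = 0.275 and 0.82, exact permutation). Without hp708 replicate 1 (7 libraries), r was 0.98 for Nnat and Blcap (adjusted p = 0.00556) and 0.97 for Meg3 and Rian (adjusted p = 0.00972, exact permutation), and the other 5 pairs again did not pass. The genes of a pair share each library's scaling and tissue composition.

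A list of 45 further imprinted genes and one of 22 genes that maintain imprints gave no call at an FDR of 0.05 with all libraries. Of the 34 further genes tested, 3 had an unadjusted p-value below 0.05 by edgeR, which is close to the 7.7% of all tested genes. They were Cobl, an actin nucleator gene, at a log2 difference of -0.37 (standard error 0.12, FDR 0.549), Ppp1r9a, a neuronal actin-binding protein gene, with 0.10 (FDR 0.641), and Phactr2, a phosphatase and actin regulator gene, with 0.24 (FDR 0.645). Cobl stood at 18.5, 26.9, 26.1 and 28.5 CPM in hpCTL and at 29, 17, 16.2 and 13.5 CPM in hp708, so its hp708 replicate 1 was the highest of all 8 libraries and the other 3 lay below every control. Without that library its log2 difference was -0.80 (FDR 0.0276, where 0.321% of tested genes passed an FDR of 0.05), and with no surrogate variables in addition -0.68 (FDR 0.998, edgeR). Without it Ppp1r9a was at 0.05 (FDR 0.761) and Phactr2 at 0.08, and Phactr2 was at 0.09 without hpCTL replicate 1 (FDR 0.788, edgeR). Of the 22 maintenance genes, Tet3, an enzyme that oxidises methylated cytosine, was alone in having an unadjusted p-value below 0.05, at a log2 difference of 0.23 (standard error 0.07, FDR 0.511 by edgeR) with all libraries and of 0.26 (FDR 0.204) without hp708 replicate 1.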

How the data were processed

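PolyA-RNA libraries of hippocampi from 4 hpCTL and 4 hp708 mice were analysed. Per the labels and the methods, the authors mapped reads to GRCm39 with STAR 2.7.8a, counted them per gene with featureCounts 1.6.4 and deposited raw counts in 1 table. Of 40659 identifiers 39641 were named from a later GENCODE release of the same build. From these counts, genes passing filterByExpr were tested with edgeR 4.0.16 (R 4.3.3), TMM scaling, 3 surrogate variables (svaseq, sva 3.50.0) and Benjamini-Hochberg adjustment over 17252 genes. The study names both the quasi-likelihood and the likelihood ratio test, and the first was used. Standard errors of log2 fold changes were derived from the fold change and the F statistic of that test. Log2 CPM had a prior count of 2, and DESeq2 1.42.0 was tried as well. Exact two-sided permutation of the 8 libraries served for single values. Seed matches were sought in the longest 3'UTR of each gene. Members and lists were chosen with earlier results of these data known. Members with an unadjusted p below 0.05 and a list of well-known imprinted genes were to be given in every library.

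In simulated counts of 17035 genes, the test recovered 151 of 194 changed genes with 17 false calls. These false calls were a larger share of all calls than an FDR of 0.05 stands for. The recovery was not split by the size of the change. It therefore gives no power for differences of the size seen in the imprinted genes. The chi-square per degree of freedom between libraries of a group lay between 10 and 46.2, so none was a copy. Same-numbered libraries did not deviate together.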

Additional observations from a re-analysis of the deposited data

Results flagged for a closer look

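In 102 groups of 4 libraries (38 imprinted genes and 13 marker lists in both conditions), 1 library stood far from the other 3 in 6, where chance gives about 5.1. Of these, 5 were hpCTL replicate 1. It held 1060 CPM of Snrpn against 763 to 775 in the other controls, 202 CPM of Snurf against 157 to 158, and 26.5 CPM of Commd1 against 19.5 to 20.5. It was low for Igf2r, with 38.4 CPM against 51.4 to 54, and for Zim1, with 3.89 CPM against 7 to 7.47. The thalamus and habenula list had a mean log2 CPM of 2.58 in hpCTL replicate 2 against 2.7 to 2.71. Among all tested genes, hpCTL replicate 1 was the highest library for 25.5% and the lowest for 21.1%.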

How the results depend on the processing

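The number of imprinted genes at an FDR below 0.05 was 0 in each of the 7 settings with all libraries and 0 to 1 when 1 library was left out. At an unadjusted p-value below 0.05 the number of 0 became 1 with the likelihood ratio test (6.01% of all tested genes), 3 with no filter on low counts (5.87%), 3 with the replicate block (1.58%), 8 with surrogate variables from TMM-scaled CPM (12.2%, chosen after seeing the data), and 0 to 17 with a library left out. Genes called among all tested went from 1 to 0 with no surrogate variables or those from CPM, 12 with no filter, 96 with DESeq2, 127 with the likelihood ratio test, and 0 to 56 with a library left out. Members without overlap between groups numbered 0 with all libraries (1.51% of tested genes) and 0 to 2 with 1 left out, when 2.9% to 6.17% of tested genes had none, the 2 being Snurf and Asb4 without hp708 replicate 3 (3.45%). The median log2 fold change of the members ranged from -0.19 to 0.04 with a library left out. Over those fits the log2 fold change ranged from -0.58 to -0.06 for Nnat, -0.19 to 0.05 for Blcap, -0.33 to 0.05 for Peg3, -0.27 to 0.15 for Meg3, -1.87 to 0.21 for Dlk1 and -0.58 to 0.68 for Igf2. Meg3 also turned to -0.00 with no surrogate variables, -0.02 under the replicate block and -0.05 with those from CPM, and Igf2 to 0.21 with no surrogate variables and 0.01 under the block. With no surrogate variables and a library left out, signs also turned for Meg3 (-0.08 without hpCTL replicate 1, -0.12 and -0.05 without hp708 replicates 1 and 3), Dlk1 (0.12 without hp708 replicate 4) and Igf2 (0.24, 0.08 and 0.68 without hpCTL replicates 2, 3 and 4, 0.51 and 0.50 without hp708 replicates 3 and 4). Same-numbered libraries had correlations of deviations between -0.0411 and 0.0177, so the block pairs by number alone. Of neighbouring pairs, 4 in place of 2 passed for r when deviations from the group mean were used. Of the 13 marker lists, 1 in place of 0 had an unadjusted p-value below 0.05 without hp708 replicate 1, a comparison added after seeing the data. The cause was not tested. With 4 libraries a group and 3 surrogate variables, few degrees of freedom remain.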

Other observations

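Other marker lists, compared by the exact permutation test of the mean log2 CPM, gave differences (hp708 minus hpCTL) of -0.14 for microglia (p = 0.486), 0.07 for astrocytes (p = 0.143), 0.15 for oligodendrocytes (p = 0.571), -0.01 for endothelium (p = 0.857) and 0.34 for ependymal cells (p = 0.457). For neurons they were -0.09 for CA1 (p = 0.286), 0.14 for CA3 (p = 0.2), 0.05 for dentate granule cells (p = 0.771), -0.09 for inhibitory neurons (p = 0.314) and -0.00 for thalamus and habenula (p = 1, exact permutation throughout). In the edgeR fit with 3 surrogate variables all 10 microglia markers had a negative log2 fold change (median -0.27), 7 of them at an unadjusted p-value below 0.05 and none at an FDR below 0.05, where 53.2% of all tested genes were negative and 7.7% had such a p-value, while their mean log2 CPM spanned 5.85 to 6.22 in hpCTL and 5.56 to 6.28 in hp708. Without hp708 replicate 1 the permutation difference of microglia was -0.02 (p = 0.886), and p lay between 0.171 and 1 for the lists named here (exact permutation). The imprinted genes together took between 0.733% of all counts, in hp708 replicate 4, and 1% in hp708 replicate 1, with 0.836% to 0.95% in hpCTL.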
